A study of Mus musculus with 6 samples.

Results

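The genes described here are the matrix metalloproteinases (MMPs), the ADAM proteases, the secreted ADAMTS proteases with their ADAMTS-like relatives, and the tissue inhibitors of metalloproteinases (TIMPs). They were taken from the expression table by symbol: every row whose gene name starts with Mmp or Adam and a number, with Adamts, or with Timp and a number. That rule found 69 of the 18174 rows, namely 18 MMPs, 23 ADAMs, 19 ADAMTS genes, 5 ADAMTS-like genes and 4 TIMPs. RNA of whole lung was sequenced from wild type male C57BL/6J mice, an inbred laboratory strain, in 2 groups. The cold group was held at 4 °C for 6 h, and the room temperature group was kept as its control. Each group had 3 libraries, and what all of them share is strain, sex, genotype and tissue. The labels call them biological replicates without saying that each came from its own animal, so the p-values measure the spread between these libraries. The comparison asks which of these genes differ in lung RNA after acute cold. The series belongs to work on pulmonary nerve fibres, lung epithelium and heat production in fat.

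MMPs and ADAMTS proteases are zinc enzymes that cut collagen, elastin, proteoglycans and other matrix proteins, and most are made as inactive precursors. ADAMs sit in the cell membrane, where the active ones release the outer part of cytokines, growth factors and adhesion molecules, while several others have lost the catalytic site and act in binding. TIMPs block the active site of MMPs and, in the case of Timp3, of several ADAM and ADAMTS enzymes too. In the lung this system turns over the alveolar wall, is carried in part by neutrophils and macrophages, and is known from emphysema and fibrosis.

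The table holds RPKM (reads per kilobase and per M reads, M standing for the prefix mega), with each gene's length taken over its full span, introns included. Values below are scaled RPKM, the deposited value divided by a composition factor of its library, and lists of 3 values are replicates 1, 2 and 3. Recovered depth was 32.8 to 35.1 M reads in the cold libraries and 39.7 to 48.7 M at room temperature. With limma and Benjamini-Hochberg adjustment over 15238 genes tested, 70.5% of all genes were called at an adjusted p under 0.05, 35.5% higher and 35.0% lower in cold. With the deposited scaling by library totals, 65.1% of the called genes were higher, against 50.4% here, and the median of all genes stood at 0.29 in place of 0.0032 on the log2 scale. Room temperature replicate 3 lay apart from its group, at 44.0 on the first principal component against 81.3 and 94.2 for the other room temperature libraries and −69.3 to −77.9 for cold. Alveolar type 2 markers summed to 10308 to 14009 RPM (reads per M reads) in cold and 3577 to 6277 at room temperature, so lung epithelium was present in every library. Of these 8 markers 6 were higher, among them Sftpc (mean 2375 scaled RPKM in cold and 261 at room temperature), while Sftpb and Sftpa1 were not called. Alveolar type 1 markers, 6 of 8 higher and 1 lower (Pdpn), summed to 2799 to 3006 RPM in cold and 687 to 1101 at room temperature. The 8 club and secretory and the 8 ciliated cell markers were all lower in cold. Summed, the club and secretory markers stood at 19124 to 22516 RPM in cold and 78069 to 104390 at room temperature, and the ciliated markers at 407 to 551 and 1755 to 2675. All 10 endothelial markers were higher, at 3076 to 3718 RPM in cold and 100.4 to 648 at room temperature. Because tissue was sequenced in bulk, fewer cells of a type and less RNA per cell cannot be told apart in any value below.

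Most of the protease genes with enough reads were higher in the cold libraries, led on the log2(scaled RPM + 0.5) scale by Adamts10, Mmp8, Adam19 and Mmp28, while Adam8, Mmp15, Timp4 and Adam28 were the deepest falls. Of the 69 genes, 59 passed the filter on low reads (10 reads or their equivalent in at least 3 libraries), and 36 of these rose and 9 fell. That is 61.0% higher and 15.3% lower, beside 35.5% and 35.0% of all genes. The median log2 fold change of the 59 was 0.91, beside 0.0032 over all genes. With the deposited scaling 41 of the 59 rose and 8 fell, beside 7034 higher and 3766 lower of all 15238 genes. The filter favours genes that are high in a single group: 15 of the 59 did not reach 10 reads in every room temperature library, and 14 of those 15 were called higher. Among the 43 with 10 reads in all 6 libraries, 22 rose and 8 fell (51.2% and 18.6%), beside 34.3% and 36.2% of the 13843 genes that met the same condition. The groups did not overlap for 36 genes higher and 8 lower in cold, beside 38.4% and 37.8% of all genes (76.2% in either direction). Of the 59, 20 share exons with, or lie inside, another gene, and 16 of those 20 rose and 2 fell. In 26 of the 36 genes that rose, room temperature replicate 3 was the highest of its group, as it was for 70.1% of all genes that rose.

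**Figure D1:**
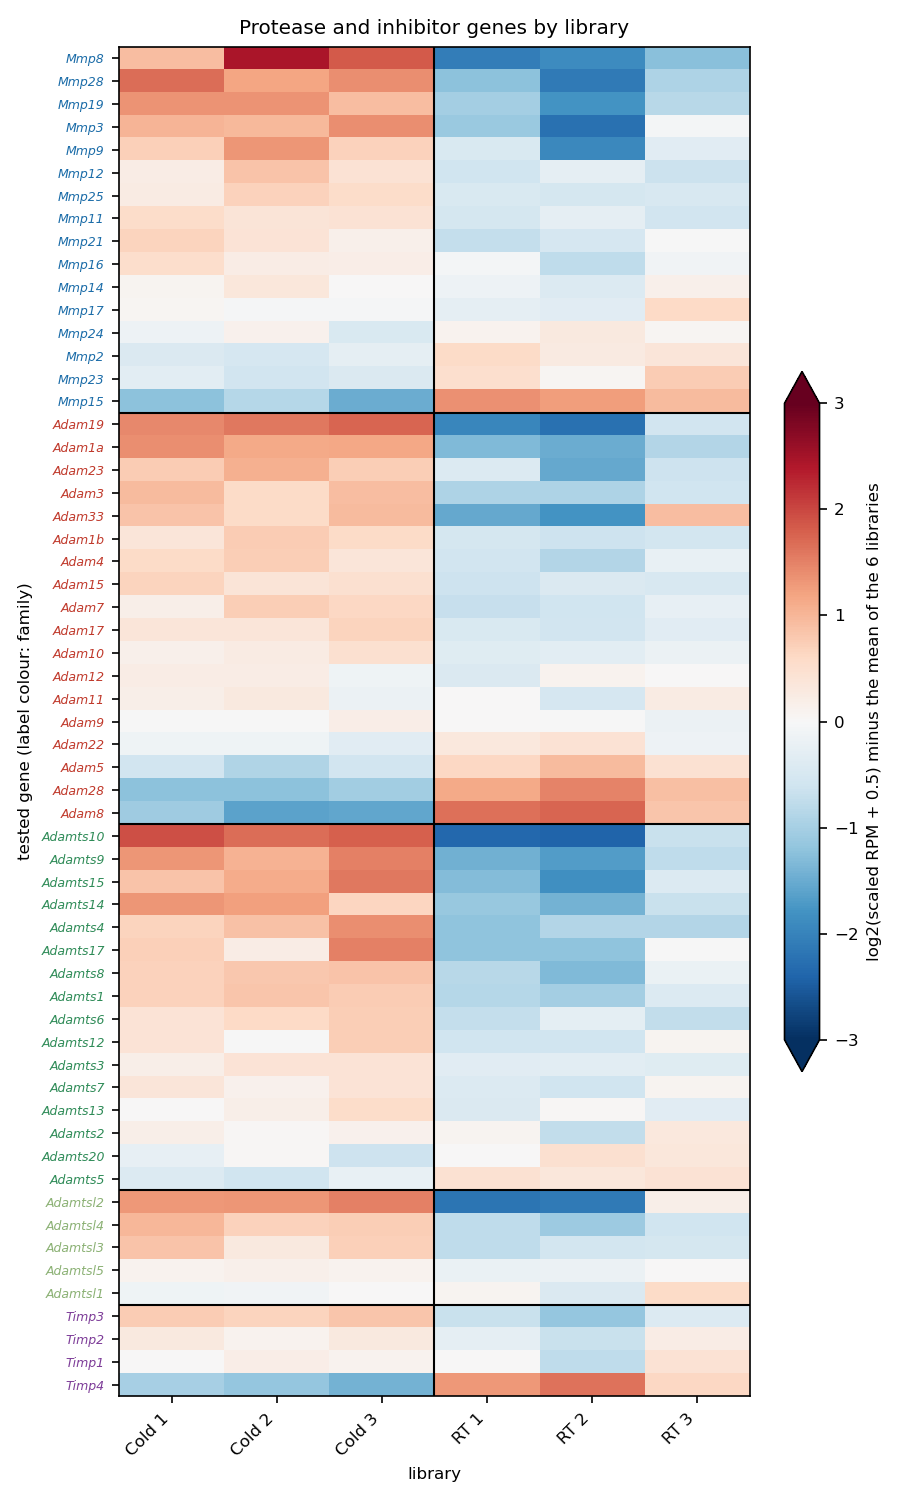
Each row is 1 of the 59 tested genes, grouped by family (coloured labels) and ordered by log2 fold change, and each column is a library, cold (3) left of room temperature (RT, 3). Colour gives log2(scaled RPM + 0.5) minus the mean of the 6 libraries. Most rows are red in the 3 cold libraries and blue at room temperature, the reverse holds for Mmp15, Adam8, Adam28 and Timp4, and RT replicate 3 is paler than RT replicates 1 and 2 in many rows.

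Among the MMPs 10 of 16 tested genes rose and 3 fell (background 35.5% and 35.0%), with a median log2 fold change of 0.86. Of those that rose, Mmp8, Mmp16, Mmp21 and Mmp25 did not reach the equivalent of 10 reads in every room temperature library. Mmp8, the collagenase that neutrophils store in granules, stood at 0.351, 1.09 and 0.704 scaled RPKM in the cold libraries, against 0, 0.00701 and 0.0388 at room temperature. In reads, that was 130, 400 and 277 in cold, against 0, 2.93 and 14.96 at room temperature. The cold libraries lay far apart from each other but all above the room temperature ones (log2 fold change 3.47 ± 0.40 SE, adjusted p = 0.00026). With so few reads at room temperature the size of this change rests on the amount added before the log: it was 5.02 with 0.1 RPM and 2.01 with 2 RPM in place of 0.5 RPM. Mmp9, gelatinase B, which neutrophils and macrophages release, had 0.458, 0.719 and 0.449 in cold, against 0.183, 0.0456 and 0.203 at room temperature (log2 fold change 1.82 ± 0.43 SE, adjusted p = 0.0073). The groups did not overlap, and cold replicate 2 was the highest library for both genes. Mmp25, a membrane-anchored MMP of leukocytes, had 0.0329, 0.0556 and 0.0483 in cold, against 0.00916, 0.00701 and 0.00840 at room temperature (log2 fold change 0.98, adjusted p = 0.0016). It passed the filter through the cold libraries alone, with 20.6, 34.5 and 32.2 reads in cold and 5.39, 4.96 and 5.47 at room temperature. The size of its change therefore also depends on the amount added before the log. Of the 8 neutrophil markers 7 were tested and 6 were higher, Ly6g was listed at 0 in every room temperature library, and their sum was 126 to 242 RPM in cold and 22.9 to 42.3 RPM at room temperature. The part of neutrophil number in the levels of Mmp8, Mmp9 and Mmp25 was not tested.

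Mmp3 and Mmp11 are the stromelysins tested, secreted enzymes of connective tissue cells. Mmp3 stood at 2.48, 2.37 and 3.23 scaled RPKM in the cold libraries, against 0.524, 0.215 and 1.14 at room temperature (log2 fold change 2.27 ± 0.51 SE, adjusted p = 0.0073). Room temperature replicate 3 was the nearest to cold, and without that library the log2 fold change was 2.80. Mmp11, which furin activates inside the cell, had 1.52, 1.34 and 1.38 in cold, against 0.697, 0.834 and 0.678 at room temperature (log2 fold change 0.91 ± 0.12 SE, adjusted p = 0.00035). It shares exon sequence with Chchd10, which fell (log2 fold change −3.06). Mmp12, the macrophage elastase, was low throughout, at 0.0391, 0.0717 and 0.0483 in cold, against 0.0137, 0.0222 and 0.0126 at room temperature (log2 fold change 1.00 ± 0.22 SE, adjusted p = 0.0041), and 0.1 RPM in place of 0.5 RPM gave 1.49. Of the alveolar macrophage markers 6 of 7 tested were higher and 1 was lower (Pparg). The markers summed to 134 to 182 RPM in cold and 14.3 to 46.4 RPM at room temperature.

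Mmp28, epilysin, an MMP of epithelium, and Mmp19, a broadly expressed secreted MMP, also rose. Mmp28 stood at 0.770, 0.543 and 0.632 scaled RPKM in the cold libraries, against 0.0836, 0.0351 and 0.108 at room temperature (log2 fold change 2.84 ± 0.31 SE, adjusted p = 0.00018). The lowest cold library was 5.02 times the highest at room temperature. Mmp19 had 3.65, 3.64 and 2.70 in cold, against 0.659, 0.362 and 0.765 at room temperature (log2 fold change 2.43 ± 0.26 SE, adjusted p = 0.00020). Both share exon sequence with an opposite-strand neighbour that was also higher in cold, 1700020L24Rik for Mmp28 and Tmem198b for Mmp19, and whether reads were shared was not tested. Mmp21, which acts in left-right patterning of the embryo, and Mmp16, a membrane-type MMP, were called higher on few reads, with 16.1 to 29.0 and 17.4 to 26.2 reads in the cold libraries, against 0 to 11.9 and 0 to 10.7 reads at room temperature. Neither call held in all alternatives. Leaving out cold replicate 1 or room temperature replicate 1 gave Mmp21 an adjusted p of 0.058 or 0.056, and Mmp16 missed the threshold in 7 of 16.

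Of the MMPs 3 were lower. Mmp15, a transmembrane MMP, was the MMP with the most reads at room temperature, and stood at 1.86, 2.42 and 1.55 scaled RPKM in the cold libraries, against 11.4, 10.5 and 8.50 at room temperature. It was 5.20-fold lower in cold, with every cold library below every room temperature library (log2 fold change −2.38 ± 0.18 SE, adjusted p = 5.7e-05). Mmp2, gelatinase A, which Mmp14 and Timp2 together activate, had 0.558, 0.533 and 0.630 in cold, against 1.14, 0.920 and 0.987 at room temperature (log2 fold change −0.80 ± 0.12 SE, adjusted p = 0.00063). Mmp23, an MMP with a membrane anchor at its start, had 2.05, 1.70 and 1.89 in cold, against 3.77, 2.73 and 4.52 at room temperature (log2 fold change −0.88 ± 0.19 SE, adjusted p = 0.0041). Mmp14 itself, the main activator of Mmp2, was at 3.45, 4.12 and 3.31 in cold, against 2.95, 2.44 and 3.62 at room temperature with overlapping groups, and was not called (log2 fold change 0.28 ± 0.16 SE, adjusted p = 0.15). Without room temperature replicate 3 its adjusted p was 0.021 at a log2 fold change of 0.42, and with the deposited scaling 0.020 at 0.60. Mmp17 and Mmp24, further membrane-bound MMPs, had log2 fold changes of 0.01 and −0.32 with adjusted p = 0.98 and 0.12. Without cold replicate 2, Mmp24 had a log2 fold change of −0.47 and an adjusted p of 0.038. Club and ciliated cell markers were lower in the libraries where Mmp15 was lower, and their part in its level was not tested. Mesothelial markers, 2 of 6 lower, summed to 147 to 209 RPM in cold and 882 to 1135 at room temperature, with most of the sum from Krt19, which airway epithelium also expresses, and Msln the other marker that fell. Smooth muscle and pericyte markers, 5 of 8 lower and 2 higher (Pdgfrb and Notch3), summed to 346 to 566 in cold and 1868 to 2367 at room temperature. Their part in the levels of Mmp2 and Mmp23 was not tested.

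**Figure D2:**
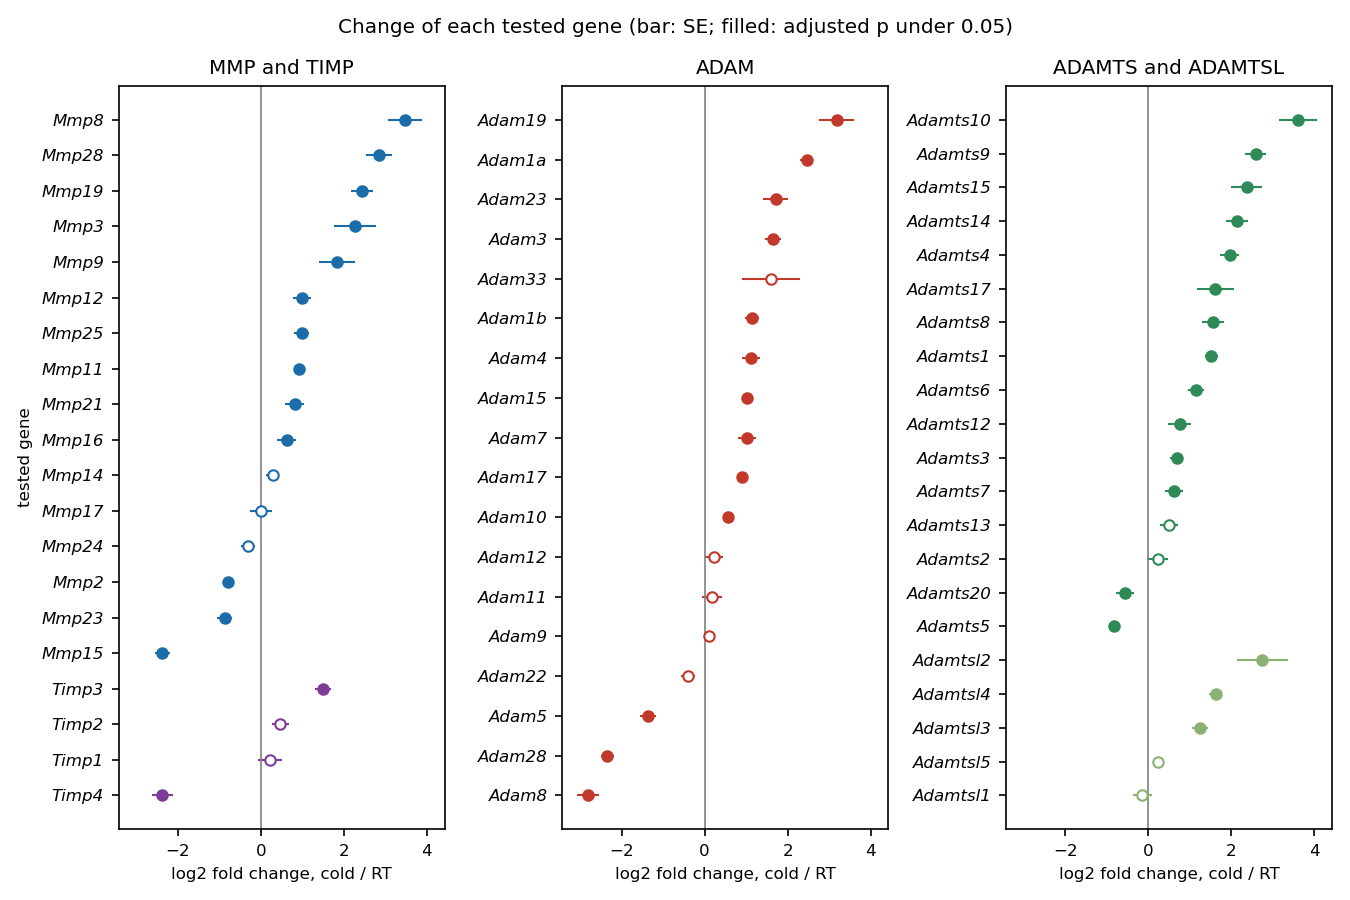
Log2 fold change of cold over room temperature (x axis) for each tested gene (y axis), with bars of 1 SE and filled points at an adjusted p under 0.05. Filled points lie right of 0 for 36 genes and left of 0 for 9, from Adamts10 at 3.61 to Adam8 at −2.81.

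Mmp13, Mmp12, Mmp3, Mmp8 and Mmp27 lie in this order on chromosome 9 in the MMP gene cluster, and the 3 of them with enough reads all rose. Mmp13, another collagenase, did not pass the filter, with 6.02, 25.9 and 9.88 reads in cold and 3.01, 3.16 and 3.93 at room temperature. Mmp27 had 7.22, 11.7 and 6.26 reads in cold and 0, 3.07 and 10.6 at room temperature. Their promoters are shown because genes of this cluster moved together, with those of Mmp15 and Adam8, the deepest falls of the MMP and ADAM families, beside them. These 6 were chosen after their values were seen. The windows run from 250 bases before to 50 bases after the start site, 5′ to 3′ on the gene's strand, from RefSeq on GRCm38.p6. Capitals mark the AP-1 motif TGANTCA, the TATA motif TATAAA and the GC box GGGCGG on either strand. Mmp13 is at chr9:7272264-7272563, Mmp12 at chr9:7347124-7347423 (the start of 2 that holds the matches), Mmp3 at chr9:7445572-7445871 and Mmp8 at chr9:7558179-7558478, all on the plus strand. Mmp15 is at chr8:95352046-95352345 on the plus strand and Adam8 at chr7:139992513-139992812 on the minus strand.
Mmp13: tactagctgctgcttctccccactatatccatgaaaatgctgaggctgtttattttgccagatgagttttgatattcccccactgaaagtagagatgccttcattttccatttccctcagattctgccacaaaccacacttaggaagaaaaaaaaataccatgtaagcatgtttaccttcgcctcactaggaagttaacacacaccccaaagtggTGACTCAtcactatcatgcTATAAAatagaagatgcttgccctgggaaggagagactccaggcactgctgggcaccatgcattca
Mmp12: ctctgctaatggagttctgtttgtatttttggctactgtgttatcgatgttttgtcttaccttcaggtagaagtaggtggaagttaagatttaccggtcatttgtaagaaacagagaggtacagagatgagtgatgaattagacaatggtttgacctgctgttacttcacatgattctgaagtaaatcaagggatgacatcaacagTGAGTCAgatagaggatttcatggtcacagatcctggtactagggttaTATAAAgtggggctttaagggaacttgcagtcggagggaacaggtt
Mmp3: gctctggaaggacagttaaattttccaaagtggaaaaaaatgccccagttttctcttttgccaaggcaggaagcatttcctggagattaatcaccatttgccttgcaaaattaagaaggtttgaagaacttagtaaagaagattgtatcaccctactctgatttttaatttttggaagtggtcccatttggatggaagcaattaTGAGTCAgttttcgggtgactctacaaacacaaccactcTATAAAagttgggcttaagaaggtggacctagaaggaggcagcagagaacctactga
Mmp8: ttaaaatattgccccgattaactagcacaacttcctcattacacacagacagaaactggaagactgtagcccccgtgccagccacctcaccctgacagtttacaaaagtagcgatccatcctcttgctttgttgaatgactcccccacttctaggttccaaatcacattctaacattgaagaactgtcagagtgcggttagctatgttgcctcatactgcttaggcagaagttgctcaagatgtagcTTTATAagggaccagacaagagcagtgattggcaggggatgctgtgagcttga
Mmp15: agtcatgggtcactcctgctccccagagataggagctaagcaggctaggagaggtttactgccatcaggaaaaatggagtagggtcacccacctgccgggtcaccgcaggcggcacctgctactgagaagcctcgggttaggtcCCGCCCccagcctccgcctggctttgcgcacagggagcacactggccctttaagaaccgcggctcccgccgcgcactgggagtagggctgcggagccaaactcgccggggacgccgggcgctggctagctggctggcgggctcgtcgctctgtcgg
Adam8: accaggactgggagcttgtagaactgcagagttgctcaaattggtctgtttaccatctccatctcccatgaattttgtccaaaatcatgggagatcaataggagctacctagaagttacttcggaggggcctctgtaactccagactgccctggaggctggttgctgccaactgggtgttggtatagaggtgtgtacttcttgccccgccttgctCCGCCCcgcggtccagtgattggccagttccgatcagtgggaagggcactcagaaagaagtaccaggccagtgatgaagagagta

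All 4 windows of the chromosome 9 genes hold a TATA motif, on the reverse strand in Mmp8. Its first base lies 16 bases before the annotated start site in Mmp13, 7 in Mmp3 and 3 in Mmp8, and in Mmp12 at −4, which is past that site. The windows of Mmp13, Mmp12 and Mmp3 hold an AP-1 motif that starts 35, 44 and 46 bases before the start site, and that of Mmp8 holds none. The windows of Mmp15 and Adam8 hold neither and have 1 GC box each. RefSeq windows matched 42 of the 69 genes, 46 windows in all. Among these 46, 10.9% held the AP-1 motif, 17.4% the TATA motif and 58.7% the GC box, beside 7.81%, 13.6% and 35.7% of all 32851 windows of the same length. Of the 24 genes that rose and have a window, 4 held AP-1, 6 TATA and 15 the GC box, and of the 5 that fell 0 held AP-1, 0 TATA and 4 the GC box. The motifs do not overlap each other in the printed windows, and a match is a description of letters only.

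Of the 9 somatic ADAM proteases 4 rose and 2 fell (background 35.5% and 35.0%). Adam10 and Adam17, the main sheddases of Notch receptors, growth factors and tumour necrosis factor, rose modestly. Adam17 stood at 0.674, 0.675 and 0.836 scaled RPKM in the cold libraries, against 0.382, 0.353 and 0.412 at room temperature (log2 fold change 0.91 ± 0.12 SE, adjusted p = 0.00038). Adam10 had 0.422, 0.449 and 0.530 in cold, against 0.296, 0.304 and 0.335 at room temperature, a 1.50-fold difference (log2 fold change 0.57 ± 0.11 SE, adjusted p = 0.0027). Neither gene's groups overlapped. Adam17 shares a short exon stretch with Iah1, which also rose. Adam15, a disintegrin protease of endothelium and other cells, had 8.83, 7.26 and 7.69 in cold, against 3.61, 4.09 and 3.97 at room temperature (log2 fold change 1.02 ± 0.11 SE, adjusted p = 0.00015). An antisense gene covers 81.1% of the Adam15 span, and whether its reads were counted for Adam15 was not tested. Adam9, a broadly expressed sheddase, had 0.790, 0.781 and 0.902 in cold, against 0.801, 0.784 and 0.698 at room temperature and was not called (log2 fold change 0.11 ± 0.10 SE, adjusted p = 0.35). With the deposited scaling it was called higher (log2 fold change 0.44, adjusted p = 0.0045).

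Adam19, which is needed for heart development in mice, had the largest log2 fold change among the ADAMs with 0.5 RPM added, at 0.366, 0.404 and 0.452 scaled RPKM in the cold libraries, against 0.0298, 0.0234 and 0.0861 at room temperature (log2 fold change 3.18 ± 0.42 SE, adjusted p = 0.00066). Its lowest cold library was 4.25 times its highest room temperature library. As a ratio of means it was 8.78-fold, below the 13.2-fold of Adam3 and the 10.8-fold of Adam1b, which had few reads. Adam19 shares exon sequence with the antisense genes Gm16033 and Gm16034, and whether their reads were counted for it was not tested. Adam33, which human genetics has linked to asthma and which mesenchymal cells express, stood at 1.14, 0.930 and 1.22 scaled RPKM in the cold libraries, against 0.184, 0.147 and 1.20 at room temperature. Room temperature replicate 3 was as high as the cold libraries and the other 2 far below, so that the groups overlapped and the gene was not called (log2 fold change 1.60 ± 0.70 SE, adjusted p = 0.081). Without that library the log2 fold change was 2.47 with an adjusted p of 3.7e-06, and voom, which weights log counts by their precision, gave on recovered reads 1.77 and 0.032. The fibroblast markers, of which 4 of 8 were higher and 3 lower, had sums of 483 to 635 RPM in cold and of 247, 136 and 358 RPM in room temperature replicates 1, 2 and 3. Adam12, of muscle and mesenchyme, had a mean of 31.0 reads in cold and 25.3 at room temperature and was not called (adjusted p = 0.37).

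Adam8 and Adam28 went the other way. Adam8, a protease of leukocytes and epithelium that sheds adhesion molecules, was the ADAM with the most reads at room temperature and stood at 2.01, 1.39 and 1.43 scaled RPKM in the cold libraries, against 13.5, 14.3 and 7.62 at room temperature. It was 7.34-fold lower in cold (log2 fold change −2.81 ± 0.26 SE, adjusted p = 0.00013), and room temperature replicate 3, the lowest of its group, was still 3.79 times the highest cold library. Adam28, described in human lymphocytes and mouse epididymis, had 0.192, 0.192 and 0.219 in cold, against 1.03, 1.31 and 0.884 at room temperature (log2 fold change −2.35 ± 0.15 SE, adjusted p = 5.1e-05). Its 3 cold libraries lay within 0.192 to 0.219 scaled RPKM. Where Adam8 was lower, 6 of 7 tested neutrophil markers and 6 of 7 tested macrophage markers were higher (Lcn2 was not called and Pparg was lower), and all 8 club and all 8 ciliated markers were lower. What part either cell group has in Adam8 was not tested.

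The ADAMs best known from sperm and epididymis had few reads, except Adam1a. Adam1b, Adam3, Adam4 and Adam7 did not reach 10 reads in every room temperature library. Adam1a, the fertilin alpha gene, had 3.20, 2.66 and 2.70 in cold, against 0.469, 0.418 and 0.640 at room temperature (log2 fold change 2.46 ± 0.16 SE, adjusted p = 5.2e-05), but its annotated span holds much of Mapkapk5 and shares exon sequence with it and with Gm42878, so its reads are uncertain. Adam1b and Adam4 lie inside Tmem116 and Cox16 and rose on means of 28.7 against 2.65 and 37.0 against 7.32 reads in cold and at room temperature. Adam3 had 0.0320, 0.0224 and 0.0313 in cold, against 0.00114, 0.00117 and 0.00420 at room temperature (log2 fold change 1.64 ± 0.19 SE, adjusted p = 0.00021), and Adam5, its neighbour on chromosome 8, had 0.00355, 0.00179 and 0.00358 in cold, against 0.0149, 0.0199 and 0.0126 at room temperature (log2 fold change −1.36 ± 0.20 SE, adjusted p = 0.00060). Adam7, of the epididymis, rose on few reads (log2 fold change 1.01, adjusted p = 0.0038). Adam6b and Adam18 were listed at 0 in all room temperature libraries and had means of 3.99 and 5.77 reads in cold. Adam2, Adam21 and Adam32 also had too few reads to test. Adam21, the most read of these, had 6.16, 14.9 and 20.8 reads in cold and 1.18, 9.16 and 0 at room temperature. Of the 3 ADAMs without a catalytic site that bind LGI proteins in neurons, Adam23 rose, at 0.0302, 0.0376 and 0.0295 in cold, against 0.0114, 0.00351 and 0.00945 at room temperature (log2 fold change 1.71 ± 0.30 SE, adjusted p = 0.0014). Adam11 and Adam22 were not called (adjusted p = 0.51 and 0.058), though Adam22 had an adjusted p of 0.023 with the replicate number as a block and of 0.0025 without room temperature replicate 3.

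**Figure D3:**
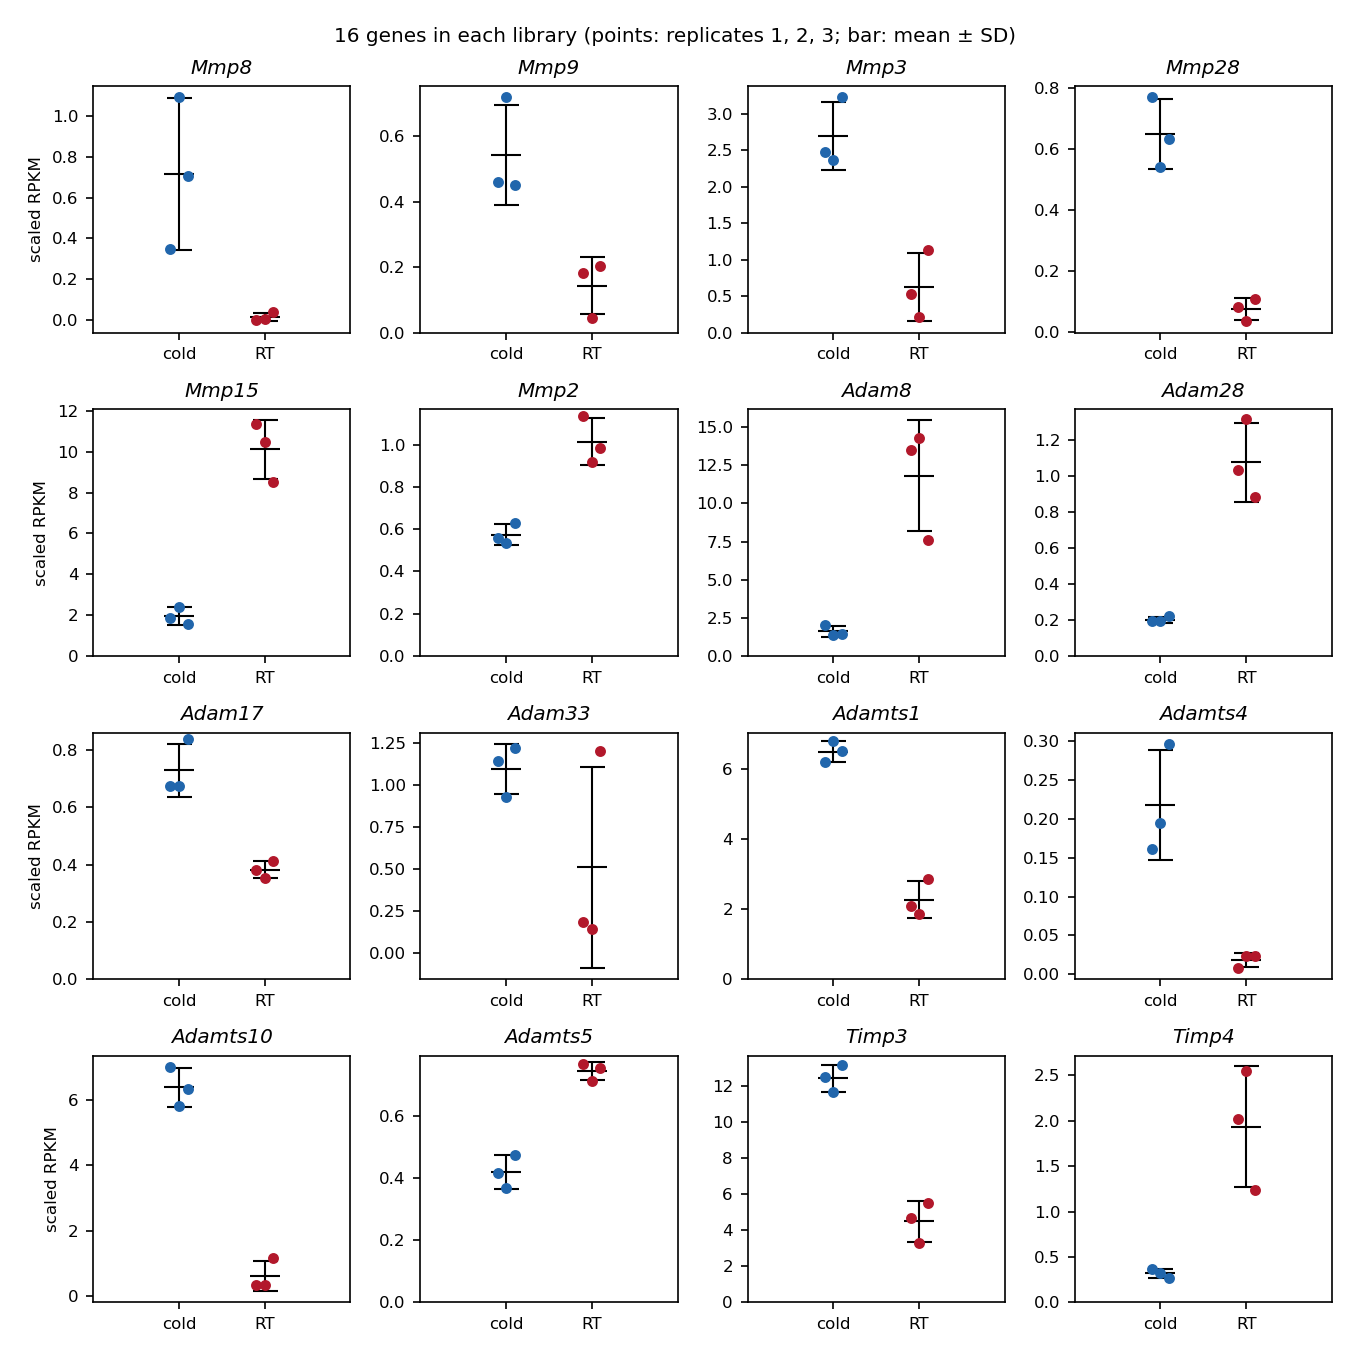
Scaled RPKM (y axis) of 16 genes in cold (blue, left) and at room temperature (RT, red, right), with replicates 1, 2 and 3 as points from left to right and mean ± SD as black bars (n = 3 per group). The groups are apart for all panels but Adam33, where RT replicate 3 at 1.20 lies among the cold libraries at 0.930 to 1.22.

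Of the ADAMTS genes tested 12 of 16 rose and 2 fell (background 35.5% and 35.0%), with a median log2 fold change of 1.34. Of those that rose, Adamts3, Adamts4, Adamts6, Adamts12, Adamts14 and Adamts17 did not reach the filter's read level in every room temperature library. Adamts10, which binds fibrillin microfibrils and is mutated in human Weill-Marchesani syndrome, had the largest log2 fold change of the 59 genes with 0.5 RPM added. With 0.1 RPM added Mmp8 was above it (5.02 against 3.65), as with voom (6.34 against 3.66). On GRCm38 the gene spans chr17:33524204-33553782 on the plus strand. It stood at 7.02, 5.82 and 6.35 scaled RPKM in the cold libraries, against 0.341, 0.330 and 1.14 at room temperature (log2 fold change 3.61 ± 0.46 SE, adjusted p = 0.00064), and its lowest cold library was 5.09 times its highest room temperature one. The proteoglycanases, which cut versican and aggrecan, split into 5 higher and 2 lower. Adamts1 had 6.20, 6.79 and 6.50 in cold, against 2.09, 1.85 and 2.86 at room temperature (log2 fold change 1.52 ± 0.16 SE, adjusted p = 0.00014). Adamts15 had 1.92, 2.33 and 3.23 in cold, against 0.414, 0.282 and 0.789 at room temperature (log2 fold change 2.37 ± 0.37 SE, adjusted p = 0.0014). Adamts8, which lies next to it, had 1.00, 1.10 and 1.14 in cold, against 0.337, 0.233 and 0.535 at room temperature (log2 fold change 1.56 ± 0.26 SE, adjusted p = 0.0014). In all 3 genes room temperature replicate 3 was the highest of its group and below every cold library. An antisense gene covers 45.8% of the Adamts8 span, and whether its reads were counted for Adamts8 was not tested. Adamts9 had 0.0951, 0.0780 and 0.108 in cold, against 0.0114, 0.00935 and 0.0199 at room temperature (log2 fold change 2.59 ± 0.25 SE, adjusted p = 0.00010), and shares exon sequence with opposite-strand genes that were also higher.

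Adamts4, aggrecanase 1, was low but separated, at 0.162, 0.195 and 0.297 scaled RPKM in the cold libraries, against 0.00801, 0.0234 and 0.0231 at room temperature (log2 fold change 1.97 ± 0.23 SE, adjusted p = 0.00022). Its mean was 84.3 reads in cold and 7.29 at room temperature, and its log2 fold change ran to 3.04 with 0.1 RPM added and to 0.94 with 2 RPM. Adamts5, aggrecanase 2, fell, with 0.418, 0.368 and 0.475 in cold, against 0.769, 0.714 and 0.755 at room temperature (log2 fold change −0.82 ± 0.11 SE, adjusted p = 0.00049). Adamts20 was called lower at the limit (adjusted p = 0.049) and missed the threshold in 9 of 16 alternatives. Among the procollagen N-proteinases, which trim fibrillar collagen precursors, Adamts14 rose, at 0.0613, 0.0564 and 0.0358 in cold, against 0.00572, 0.00351 and 0.0105 at room temperature (log2 fold change 2.14 ± 0.27 SE, adjusted p = 0.00030), and Adamts3 rose on a mean of 25.4 reads in cold and 8.85 at room temperature. Adamts2, the best known of them, was at 0.0862, 0.0780 and 0.0832 in cold, against 0.0813, 0.0444 and 0.0955 at room temperature and was not called (adjusted p = 0.46). Adamts13, which cuts von Willebrand factor, averaged 16.8 reads in cold and 6.54 at room temperature and was not called (log2 fold change 0.50 ± 0.21 SE, adjusted p = 0.064), but it passed in 5 of 16 alternatives. Adamts7 and Adamts12, which cut the matrix protein COMP, were called higher with adjusted p = 0.034 and 0.035, and each missed the threshold when any of 4 libraries was left out.

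Adamts6 and Adamts17 rose as well on few reads, with log2 fold changes of 1.16 and 1.62 (adjusted p = 0.0011 and 0.012). At room temperature Adamts6 had 8.30, 20.4 and 8.42 reads and Adamts17 had 0, 0 and 25.3. For 7 tested genes with long spans, rounding of the deposited value to 3 decimals could move the lower group's mean by more than 20%. These were Adamts3, Adamts6, Adamts12, Adamts17, Adam3, Adam12 and Mmp16, with 150% for Adamts12 and 75% for Adamts17 and Mmp16. Adamts16 was listed at 0 in all 6 libraries, and Adamts18 and Adamts19 had means of at most 5.80 reads in either group. Of the ADAMTS-like genes, which have no protease domain and bind fibrillin fibres, 3 of 5 rose and 0 fell (background 35.5% and 35.0%). Adamtsl2 stood at 1.03, 1.04 and 1.20 scaled RPKM in the cold libraries, against 0.0767, 0.0806 and 0.463 at room temperature (log2 fold change 2.75 ± 0.62 SE, adjusted p = 0.0072), with a log2 fold change of 3.53 without room temperature replicate 3, the highest of its group. Adamtsl4 had 4.69, 3.85 and 3.96 in cold, against 1.38, 1.09 and 1.54 at room temperature (log2 fold change 1.62 ± 0.15 SE, adjusted p = 8.6e-05). Adamtsl3 rose at low level (log2 fold change 1.24, adjusted p = 0.00082). Adamtsl5 was at 2.64, 2.72 and 2.61 in cold, against 2.13, 2.17 and 2.46 at room temperature without overlap but was not called (adjusted p = 0.059), and Adamtsl1 had a log2 fold change of −0.14 (adjusted p = 0.61) that turned to 0.17 with the deposited scaling.

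The 4 inhibitors did not move together. The deepest moves were those of Timp3 (chr10:86300372-86349506, plus strand) and Timp4 (chr6:115241892-115252205, minus strand). Timp3, the TIMP that binds to matrix and also blocks Adam17 and the aggrecanases, stood at 12.5, 11.7 and 13.2 scaled RPKM in the cold libraries, against 4.68, 3.28 and 5.52 at room temperature, 2.77-fold higher in cold without overlap (log2 fold change 1.50 ± 0.19 SE, adjusted p = 0.00029). Timp4, known from heart, vessels and fat, had 0.370, 0.326 and 0.267 in cold, against 2.02, 2.55 and 1.23 at room temperature, 6.03-fold lower (log2 fold change −2.37 ± 0.26 SE, adjusted p = 0.00019). Timp2 had 3.87, 3.40 and 3.87 in cold, against 2.62, 1.99 and 3.67 at room temperature. Room temperature replicate 3 lay within the cold range, the groups overlapped and the gene was not called (log2 fold change 0.47 ± 0.21 SE, adjusted p = 0.079). It was called higher with the replicate number as a block (adjusted p = 0.032), without room temperature replicate 3 (log2 fold change 0.70, adjusted p = 0.0019) and with the deposited scaling (0.79 and 0.022). Timp1, the inducible TIMP of inflammation, had 0.819, 0.946 and 0.881 in cold, against 0.820, 0.431 and 1.13 at room temperature, and the room temperature values spanned the cold ones (log2 fold change 0.21 ± 0.29 SE, adjusted p = 0.53). Without room temperature replicate 2 its log2 fold change was −0.12. Timp1, Timp3 and Timp4 lie inside Syn1, Syn3 and Syn2, the synapsin genes, on the opposite strand. Syn3 had means of 29.8 and 32.1 reads in cold and at room temperature over its whole span, against 23012 and 8374 for Timp3, so reads of Timp3 were not counted for Syn3. Syn1, Syn2 and Syn3 were not called (adjusted p = 0.57, 0.88 and 0.94). Cardiomyocyte markers, 6 of 7 lower in cold, summed to 151 to 282 RPM in cold and to 1476, 429 and 1557 RPM in room temperature replicates 1, 2 and 3. The part of these cells in the level of Timp4 was not tested.

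To compare levels between genes, reads were also divided by exon length, on the assumption that reads lie in exons. On this scale, reads per kilobase of exon per M reads, Timp3 was the highest of the 69 genes in cold and Mmp15 at room temperature. Timp3 was at 75.1 ± 4.52 in cold and 27.1 ± 6.83 at room temperature (mean ± SD over 3 libraries a group, as for the sums that follow). Timp2 was rank 2 in both groups, at 52.1 ± 3.79 in cold and 38.8 ± 11.9 at room temperature. Mmp15 was at 8.22 ± 1.86 in cold and 42.7 ± 6.19 at room temperature and Adam8 at 4.73 ± 1.02 in cold and 34.7 ± 10.7 at room temperature, which put them at rank 13 and 20 in cold and at rank 1 and 3 at room temperature. Adamts10 was rank 3 in cold and rank 22 at room temperature, at 22.9 ± 2.16 in cold and 2.17 ± 1.67 at room temperature. At room temperature Mmp15, Timp2 and Adam8 did not differ beyond their spread.

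Summed over the family, the MMP reads were lower in cold while most MMP calls were higher. MMP genes together took 239 ± 20.3 scaled RPM in cold and 350 ± 26.3 at room temperature, while 10 of 16 rose. Mmp15 alone held 65.9% of the room temperature sum. Without Mmp15 the sum was 194 ± 10.3 in cold and 119 ± 19.3 at room temperature. Under the deposited scaling the full MMP sums overlapped, at 247 to 291 RPM in cold and 289 to 332 at room temperature. The ADAM sum was 415 ± 20.9 in cold and 408 ± 48.1 at room temperature, and without Adam8, which held 39.4% at room temperature, it was 394 ± 18.8 in cold and 247 ± 8.62 at room temperature. The deposited scaling put the full ADAM sums apart, at 437 to 481 in cold and 338 to 384 at room temperature. ADAMTS genes took 399 ± 23.9 in cold and 118 ± 35.1 at room temperature, of which Adamts10 was 47.4% in cold. TIMPs took 822 ± 50.1 in cold and 395 ± 95.8 at room temperature, and Timp3 was 74.4% of it in cold. Without Timp3 the other TIMPs overlapped between groups, at 194 to 219 in cold and 137 to 219 at room temperature. No test was made on sums.

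**Figure D4:**
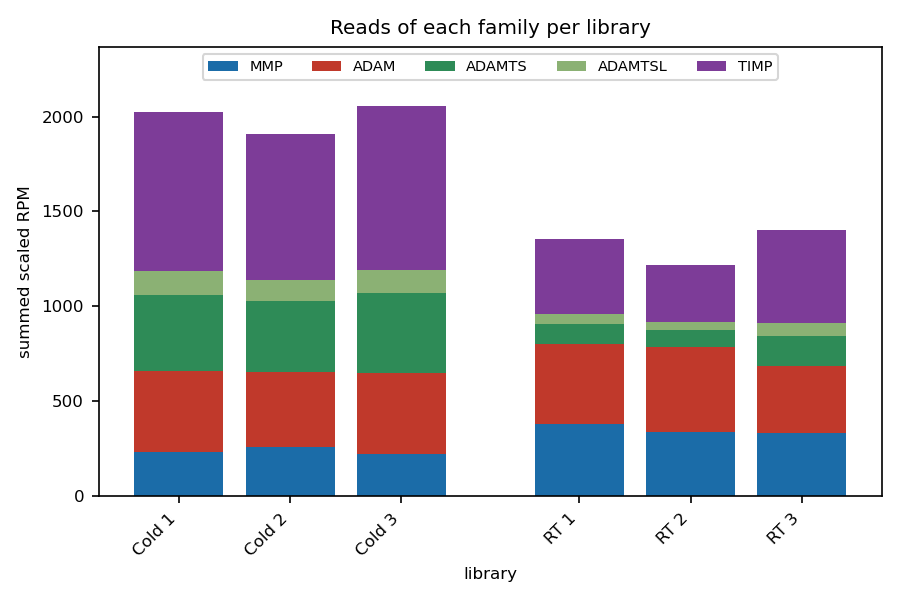
Stacked bars give the summed scaled RPM (y axis) of each family in every library (x axis), the 3 cold libraries left of the 3 at room temperature (RT). The whole bar reaches 1908 to 2058 in cold and 1218 to 1404 at room temperature, with TIMP and ADAMTS segments taller and the MMP segment shorter in cold.

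Neighbouring genes did not always move alike. Adamts1 and Adamts5 lie 53.1 kb apart on chromosome 16, and Adamts1 rose by 1.52 while Adamts5 fell by 0.82 on the log2 scale. Adam7 and Adam28, 72.3 kb apart on chromosome 14, also went in opposite directions (1.01 and −2.35). On chromosome 8, Adam3 rose by 1.64, the adjacent Adam5 fell by 1.36, and Adam9 was not called. Adam3 had 1.93, 2.37 and 7.84 reads at room temperature, and Adam5 had 12.7, 6.37 and 13.7 in cold. With 0.1 RPM added before the log the changes of Adam3 and Adam5 were 2.92 and −2.08, and with 2 RPM 0.68 and −0.62. Adamts8 and Adamts15, 20.1 kb apart on chromosome 9, both rose, as did Mmp12, Mmp3 and Mmp8 of the MMP cluster. Adamts13 and Adamtsl2 on chromosome 2 had log2 fold changes of 0.50, not called, and 2.75.

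**Figure D5:**
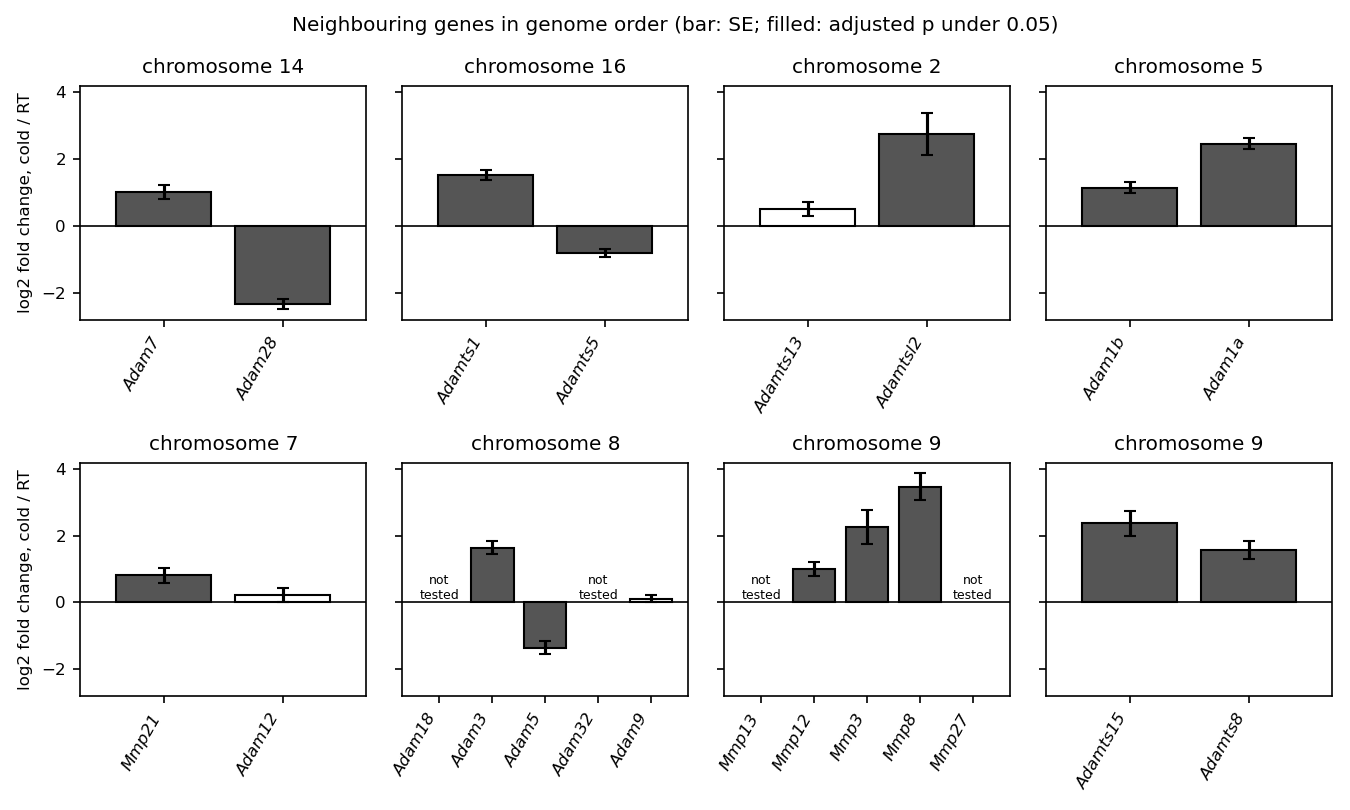
Log2 fold change of cold over room temperature (RT; y axis) for adjacent genes of these families, in genome order along each axis, with bars of 1 SE and filled bars at an adjusted p under 0.05. The chromosome 9 MMP genes and the Adamts15 and Adamts8 pair are all above 0, while the chromosome 14, 16 and 8 groups hold bars on both sides.

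Genes that control these proteases were mostly higher. Of 14 listed activators and inhibitors 9 rose and 3 fell (background 35.5% and 35.0%; median log2 fold change 1.00, beside 0.0032 over all genes). Reck, a membrane-anchored MMP inhibitor, averaged 0.443 ± 0.0593 in cold and 0.111 ± 0.0609 at room temperature (log2 fold change 2.05 ± 0.35 SE, adjusted p = 0.0018). Plaur, the urokinase receptor that focuses plasmin on the cell surface, averaged 2.38 ± 0.366 in cold and 0.340 ± 0.186 at room temperature (log2 fold change 2.79 ± 0.35 SE, adjusted p = 0.00047), and Spock2, a proteoglycan reported to modulate Mmp2 activation, averaged 3.82 ± 0.559 in cold and 0.767 ± 0.920 at room temperature (log2 fold change 2.96 ± 0.77 SE, adjusted p = 0.013). Spock2 had an adjusted p of 0.063 without room temperature replicate 2. Bsg, the MMP inducer basigin, averaged 27.6 ± 2.59 in cold and 70.7 ± 6.49 at room temperature (log2 fold change −1.36 ± 0.12 SE, adjusted p = 7.4e-05). Pcsk6, a proprotein convertase, averaged 0.0238 ± 0.00637 in cold and 0.0738 ± 0.00679 at room temperature (log2 fold change −1.55 ± 0.19 SE, adjusted p = 0.00026).

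Of 9 partners of Adam10 and Adam17, 8 were tested, 7 rose and 1 fell (background 35.5% and 35.0%; median 0.83). Rhbdf2, the iRhom that carries Adam17 to the surface of immune cells, averaged 1.39 ± 0.135 in cold and 0.572 ± 0.0498 at room temperature (log2 fold change 1.25 ± 0.11 SE, adjusted p = 8.5e-05). Tspan5 and Tspan15, tetraspanins that direct Adam10, rose by 1.50 and 1.40 on the log2 scale, and Tspan33, another of them, averaged 0.0753 ± 0.0106 in cold and 0.271 ± 0.0411 at room temperature (log2 fold change −1.60 ± 0.17 SE, adjusted p = 0.00016). Of 26 genes whose proteins these enzymes cut, 25 were tested at the RNA level, 14 rose and 4 fell (background 35.5% and 35.0%; median 0.71). Cdh5, the endothelial cadherin, and the endothelial receptor Notch4 were the largest rises (log2 fold changes 4.65 and 3.85), with the epithelial cadherin Cdh1 and the chemokine Cx3cl1 as the largest falls (−1.63 and −1.62). Tnf, the best known product of Adam17, averaged 0.262 ± 0.0808 in cold and 0.245 ± 0.0715 at room temperature, and the groups overlapped (log2 fold change 0.05 ± 0.21 SE, adjusted p = 0.84). Cdh5 is also in the endothelial marker list, whose 10 members all rose. Ager, which rose, and Dcn, which fell, are also in the alveolar type 1 and the fibroblast marker list.

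By q value under 0.05 in the authors' deposited table, 32 of the 69 genes were higher and 5 were lower, beside 12.7% and 12.0% of all rows (24.8% in all). Of these 37, 33 were called here in the same direction, 0 in the opposite one, and 4 had too few reads for the test used here. A further 12 genes called here had a deposited q value of 0.05 or more in the authors' deposited table. Adam10, Adam15, Adam17, Mmp2, Mmp11 and Adamts5 are among them, with q values in the authors' deposited table of 0.47, 0.15, 0.21, 0.28, 0.20 and 0.28.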

How the data were processed

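The authors deposited 1 RPKM value per gene and library, rounded to 3 decimals, in a table named as raw counts whose values are not whole numbers. The build was mm10, per the submitters' processing notes, and the NEBNext Ultra II kit was used on total RNA, per the labels' protocols. The sources used here give no aligner, counter or strand setting. The authors' log2 fold change, p-value and q-value columns were deposited with the table with no named test. Value times gene span in GENCODE M21 (GRCm38) lay near whole multiples of 1 read's worth in each library (phase coherence 0.796 to 0.849, where 1 is exactly whole), which gives the depth. For 92 rows without a span no test was made, and 49 rows with a repeated symbol kept their gene ID as name. All per-library columns were mapped, 0 were left over.

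RPM (RPKM times span in kilobases) was divided by a composition factor, the trimmed mean of log ratios without weights (trimming 30% by ratio, 5% by average). limma 3.58.1 in R 4.3.3 (lmFit, eBayes with trend and robust options) was fitted to log2(scaled RPM + 0.5) over 15238 genes, with group as the only term, two-sided, Benjamini-Hochberg adjusted, threshold 0.05. This log2 scale shrinks the fold change of genes with low values. Genes needed the equivalent of 10 reads in at least 3 libraries and 15 reads in all. Exact permutation of 3 against 3 libraries cannot go below p = 0.1, so single-gene permutation tests were not used. The procedure was tested on simulated data in which few genes changed, up and down alike, no library lay apart and no composition factor was needed. That setting differs from these data, where 70.5% of genes were called, so it cannot show how the procedure behaves here. The members and gene lists were chosen with earlier results of these data known. Named genes are all TIMPs, the 4 largest rises and falls of each family with groups apart, and fixed genes of known role, and further genes were named to account for every row. Deviations from group means of same-numbered libraries had correlations of 0.115, 0.149 and 0.155 over genes. All exceed 0.1, but the labels do not link same-numbered libraries of the 2 groups, so whether the numbers mark pairs is not known. The main fit treats the libraries as unpaired, and 1 of the 16 alternatives has the number as a block.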

Additional observations from a re-analysis of the deposited data

How the results depend on the processing

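Over 16 alternatives (scaling, amount added before the log, unit, filter, variance model, replicate block and single-library omissions), 41 of the 59 tested protease genes kept their direction and their side of the threshold wherever they were tested. Of these, 30 were tested in all 16, and 11 had no value with the filter at 50 reads, which left 44 genes. With all 6 libraries 45 were called, 36 higher and 9 lower. With the replicate block 47 were called, and Timp2 and Adam22 were the genes that the block brought under the threshold, and it changed no other call of these genes. Leaving out each library in turn gave 40 to 49, the highest without room temperature replicate 3. Without the 20 genes that share exons with, or lie inside, another gene, 27 of 39 were called, 20 higher and 7 lower. Of all genes tested 70.5% were called, 35.5% higher and 35.0% lower. This alternative was chosen after seeing the data. Among the listed pathway genes 8 were lower, and 5 with the deposited scaling. The direction reversed for Timp1 without room temperature replicate 2 (−0.12, in a range of −0.12 to 0.48 over the single-library omissions). It also reversed for Tnf without cold replicate 2 (−0.062) and without room temperature replicates 1 (−0.026) and 2 (−0.0030), in a range of −0.062 to 0.20, and none of these was called. Among uncalled genes the sign also turned for Adam11 (−0.026) and Adamts2 (−0.095) without room temperature replicate 2, for Mmp17 in 4 settings (to −0.16) and for Adamtsl1 in 2 (to 0.17). The cause of these shifts was not tested. Depth limits the 10 untested genes and those with under 10 reads at room temperature, whose fold changes depend on the amount added before the log.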
